A study of Mus musculus with 3 samples.

Results

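The genes of the MHC class I presentation pathway and the immunoproteasome were followed on 3 arrays of sorted mouse pancreas cells. The group comprised 10 genes (B2m, H2-K1, H2-D1, H2-T23, Tap1, Tap2, Tapbp, Psmb8, Psmb9 and Psmb10), chosen by the gene symbol that the platform annotation gives each probe. They had 16 probes, of 16593 named genes and 25697 probes on the array. The samples were 3 replicates of 1 group, titled induced delta cells. Each came from Rag1-/- mice (these have no mature T or B cells) after 100 µl of adenovirus had been injected into the splenic lobe of the pancreas. Cherry+ cells were sorted from the acinar fraction once the endogenous islets had been removed, and the series title gives day 10. The titles speak of delta cells, while the extraction protocol and the design text speak of beta cells. The sources used here do not give the gene that the virus carried, the strain background or the animals' age, and no untreated or unsorted sample was analysed, so no level below shows a change caused by the virus.

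MHC class I molecules display short peptides from inside a cell on its surface, where CD8 T cells read them. A heavy chain, such as the products of H2-K1 and H2-D1, pairs with beta-2 microglobulin, encoded by B2m, and is loaded with peptide in the endoplasmic reticulum. The proteasome cuts the peptides in the cytosol, and the transporter made of the Tap1 and Tap2 products carries them across the membrane. Interferon gamma is known to raise the expression of most of these genes, among them 3 catalytic proteasome subunits that take the place of the constitutive ones and so form the immunoproteasome.

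Detection on all 3 arrays was reached by 8 of the 10 genes, against 40.9% of all named genes. A gene counted as detected where at least 1 of its probes had a detection p under 0.05 on every array, that is, a signal above the 95th percentile of the negative control probes. By probe, 11 of 16 were detected on all 3 arrays, against 33.0% of all probes. Tapbp and Psmb8 were the genes not detected on all 3 arrays. Levels are given as log2 of the background-corrected and quantile normalized signal, as mean ± SD over the 3 arrays (n = 3), and the limit of detection lay at 4.83, 4.77 and 4.75 on this scale on the arrays of replicates 1, 2 and 3. Probes differ in how well they bind, so levels of different genes were not ranked. Nothing in the labels says that the replicates came from separate animals, so the spread may be technical.

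**Figure D1:**
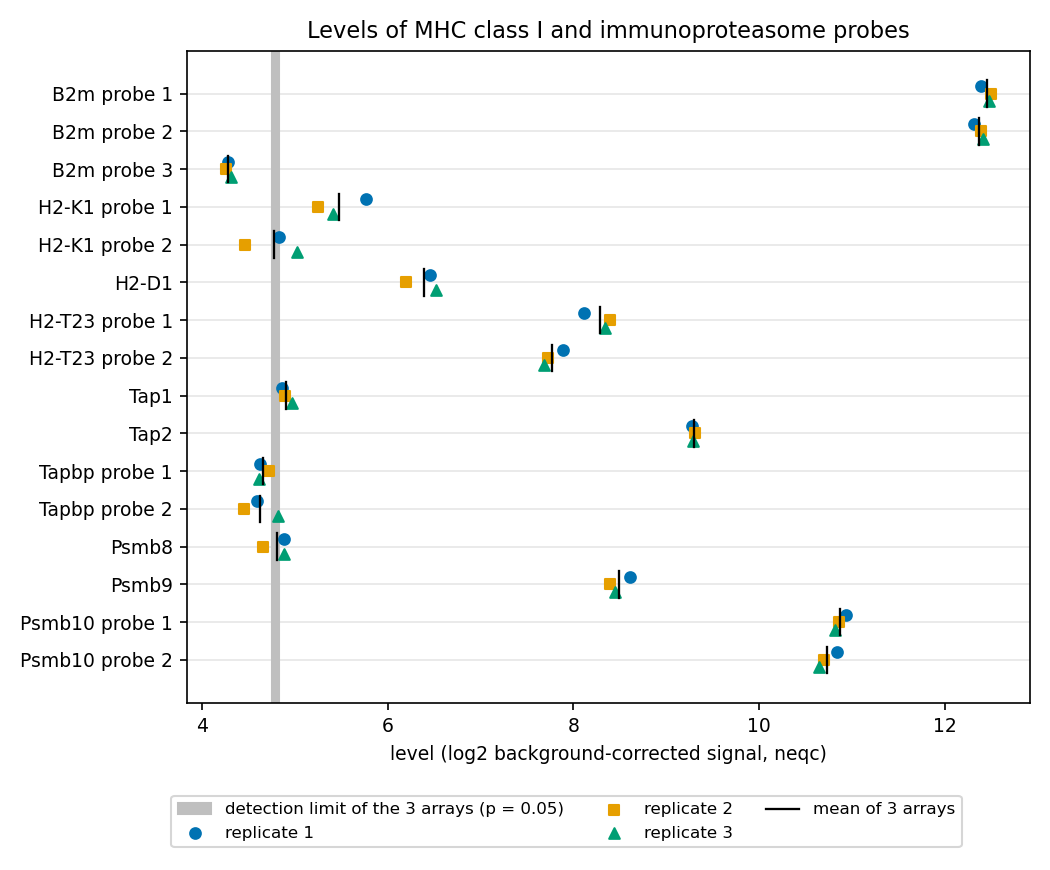
Level of each of the 16 probes (horizontal axis, log2 background-corrected signal) on the 3 arrays (points) with the mean of the 3 arrays (vertical line) and the detection limit of the arrays (grey band, 4.75 to 4.83). Probes of 1 gene are numbered from the brightest, and those of Tapbp and Psmb8, the third B2m probe and the second H2-K1 probe lie at or below the band on at least 1 array.

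B2m, the light chain shared by all classical class I molecules, was read by 3 probes. The brightest had deposited signals of 5205, 5818 and 6055 on replicates 1, 2 and 3. These were 86.2, 107 and 117 times the median negative control (12.46 ± 0.059). That median was itself 60.38, 54.22 and 51.85, so multiples of it were not compared between arrays, here or below. On the normalized scale the brightest probe differed by 1.08-fold between arrays. The second read 4960, 5387 and 5730 (12.37 ± 0.052). These probes were lowest on replicate 1 in every scaling tried. The third B2m probe was at background, with signals of 56.3, 49.0 and 49.9 and detection p-values of 0.781, 0.866 and 0.645. A probe of this gene could thus lie at background while others read far above it.

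The classical heavy chain genes H2-K1 and H2-D1, which encode the molecules that present peptide to CD8 T cells, were read close to the background. The brighter H2-K1 probe had signals of 97.4, 77.2 and 80.5 on replicates 1, 2 and 3, or 1.61, 1.42 and 1.55 times the median negative control (5.48 ± 0.26). Its detection p was 0, 0.00376 and 0, so it passed on each array. The other H2-K1 probe read 73.4, 57.9 and 69.8 (4.77 ± 0.29) and was detected on replicates 1 and 3, with p-values of 0.0489 and 0.0125, and not on replicate 2, with 0.256. Both H2-K1 probes were lowest on replicate 2. The 1 probe of H2-D1 read 129, 113 and 132, or 2.13, 2.08 and 2.54 times the median negative control (6.39 ± 0.17), and was also lowest on replicate 2. The probe sequences were not used here, and class I genes are both highly alike and highly variable between strains, so whether a probe matches the allele or paralog in these mice was not tested. A low signal on these probes is therefore an uncertain measure of the transcript.

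The likeness of H2-K1 and H2-D1 extends to their promoters. These are shown with those of B2m and Tap1 because class I genes are known to be induced through elements in their promoters. Whether the letters marked below act as such elements was not tested. The windows run from 250 bases before to 50 bases after the start of the gene, in RefSeq's annotation of GRCm38.p6, 5′ to 3′ along the gene's strand. Capitals mark matches on either strand to GGGNNTTNC (letters shared by NF-kappaB-type sites), AANNGAAA (the core bound by interferon regulatory factors) and CCAAT (the box bound by NF-Y).
B2m promoter (chr2:122147437-122147736, plus strand): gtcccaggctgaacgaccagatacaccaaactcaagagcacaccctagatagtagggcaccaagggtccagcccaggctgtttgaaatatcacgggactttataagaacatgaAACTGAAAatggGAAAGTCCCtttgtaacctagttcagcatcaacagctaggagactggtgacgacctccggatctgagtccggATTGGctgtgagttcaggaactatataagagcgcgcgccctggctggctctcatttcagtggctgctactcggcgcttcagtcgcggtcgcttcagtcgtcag
H2-K1 promoter (chr17:34000298-34000597, minus strand): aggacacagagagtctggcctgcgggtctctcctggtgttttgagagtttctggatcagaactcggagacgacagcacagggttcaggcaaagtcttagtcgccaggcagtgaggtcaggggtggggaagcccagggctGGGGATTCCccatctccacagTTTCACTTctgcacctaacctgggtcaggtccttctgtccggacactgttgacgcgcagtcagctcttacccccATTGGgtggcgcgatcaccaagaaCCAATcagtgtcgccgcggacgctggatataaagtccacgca
H2-D1 promoter (chr17:35262844-35263143, plus strand): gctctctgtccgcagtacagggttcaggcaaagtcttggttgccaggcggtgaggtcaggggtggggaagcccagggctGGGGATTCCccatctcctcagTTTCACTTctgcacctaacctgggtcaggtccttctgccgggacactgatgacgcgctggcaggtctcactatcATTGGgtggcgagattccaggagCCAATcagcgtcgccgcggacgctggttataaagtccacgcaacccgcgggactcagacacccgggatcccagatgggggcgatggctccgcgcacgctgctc
Tap1 promoter (chr17:34187306-34187605, plus strand): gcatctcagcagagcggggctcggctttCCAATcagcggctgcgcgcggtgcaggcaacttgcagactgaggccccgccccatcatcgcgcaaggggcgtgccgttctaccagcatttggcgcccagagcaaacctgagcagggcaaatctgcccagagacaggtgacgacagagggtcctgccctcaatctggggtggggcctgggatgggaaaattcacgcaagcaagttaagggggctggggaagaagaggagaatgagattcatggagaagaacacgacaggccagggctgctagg
Of the 10 genes, 9 had a window, and H2-K1 had 2 overlapping ones, of which the first is printed. The H2-K1 and H2-D1 windows aligned over 228 positions with 206 identical bases (90.4%) and shared an unbroken run of 47 bases. The NF-kappaB-type letters occurred in the windows of B2m, H2-K1 and H2-D1 and in 15.2% of the 32851 promoter windows of all genes. The interferon regulatory factor core occurred in those of B2m, H2-K1, H2-D1 and H2-T23 (23.9% of all windows). CCAAT occurred in the windows of 7 of the 9 genes (37.4%), and Psmb8 and Psmb10 held none of these letters. The windows of Tap1 and Psmb9 overlap and hold the same CCAAT match, and those of H2-K1 and H2-D1 are largely alike. The matches counted by gene are thus not all independent. The letters searched were chosen with these windows in view, after other spellings of the NF-kappaB-type and interferon-type letters had been tried. A match is only a run of letters, and the absence of one says nothing of a factor's action outside the window.

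H2-T23, which encodes the non-classical molecule Qa-1, a ligand of natural killer cell receptors, was detected by both its probes on all 3 arrays. The brighter probe read 307, 384 and 377 on replicates 1, 2 and 3 (8.29 ± 0.15) and the other 270, 253 and 251 (7.76 ± 0.11). The first was lowest on replicate 1 and the second highest there, in each of the 4 scalings, so the probes of this gene ordered the arrays differently. The log2 range between arrays was 0.28 for the first and 0.201 for the second, and 0.43 and 0.034 with median scaling.

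Of the other class I and class I-like heavy chains, 10 of 22 measured genes were detected, or 45.5%, against 40.9% of all genes, a share near the background. Among the neighbours of the classical genes, H2-Q7, a Qa-2 antigen gene, read 7.0 ± 0.082, H2-Q1 5.45 ± 0.079 and H2-Q8 5.28 ± 0.068. H2-M3, which presents formylated peptides, read 5.61 ± 0.14, H2-M2 6.33 ± 0.081, H2-M10.1 5.03 ± 0.026 and H2-Bl 5.72 ± 0.089. Of the class I-like genes, Fcgrt, the neonatal Fc receptor, read 7.92 ± 0.054, Hfe, a regulator of iron uptake, 6.33 ± 0.17 and Cd1d1, which presents lipids, 5.33 ± 0.11. The remaining 12, among them H2-Q10, H2-T3, H2-T10 and Mr1, were detected on no array. As with H2-K1 and H2-D1, near-identical family members may share a probe.

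The peptide transporter gave uneven readings. Tap2 had signals of 630, 689 and 687, or 10.43, 12.7 and 13.3 times the median negative control, on replicates 1, 2 and 3 (9.30 ± 0.017). Its SD was lower than that of all but 2.91% of the probes detected on all arrays, but its range of 0.033 log2 units between arrays was 0.196 with median scaling, above the ranges of both Psmb10 probes there (0.051 and 0.034). Tap1, whose product works only together with that of Tap2, read 74.1, 68.7 and 68.2 (4.91 ± 0.052). Its detection p-values were 0.0426, 0.0201 and 0.0163, so it passed on every array, close to the limit. Tap1 lies between Psmb9 and Psmb8 on chromosome 17, where Psmb9, Tap1, Psmb8 and Tap2 are 4 consecutive genes in RefSeq. Tap1 and Psmb9 run in opposite directions from starts 226 bases apart, and their promoter windows share 275 bases (chr17:34187306-34187580 within the Tap1 sequence above).

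Tapbp encodes tapasin, which holds an empty class I molecule at the transporter. Its probes, assigned to different transcripts, were not detected on all arrays. One read 68.9, 64.6 and 60.0 (4.65 ± 0.056) and was detected on no array, with p-values of 0.113, 0.0589 and 0.103. The other read 68.2, 57.6 and 64.7 (4.62 ± 0.18) and was detected on replicate 3, with a p of 0.0263.

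Of 15 measured genes of peptide loading and trimming, 10 were detected (66.7%). Tapbpl, a relative of tapasin, read 5.89 ± 0.23, Pdia3, the oxidoreductase ERp57 of the loading complex, 7.74 ± 0.13, and Sec61a1, the channel of the endoplasmic reticulum membrane, 8.51 ± 0.074. The cytosolic peptidases Nrd1 (10.88 ± 0.11), Thop1 (8.08 ± 0.068), Tpp2 (7.55 ± 0.23) and Blmh (6.62 ± 0.069) were detected as well, as were Ganab, Uggt1 and Sec61b. Calr, Canx and Erap1, which encode calreticulin, calnexin and the aminopeptidase that trims peptides in the endoplasmic reticulum, were detected on no array (4.36 ± 0.094, 4.48 ± 0.25 and 4.42 ± 0.053). Calreticulin and calnexin are abundant chaperones of secretory cells, and as with the third B2m probe, readings at background do not show that these genes were silent.

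Of the 3 immunoproteasome subunits, 2 were detected on all arrays. Psmb10, which replaces Psmb7, was read by 2 probes, with signals of 1897, 1913 and 1900 for the brighter (10.87 ± 0.059) and 1802, 1731 and 1704 for the other (10.73 ± 0.10), or 29.9 to 36.7 times the median negative control. Both probes were highest on replicate 1, though the brighter one was highest on replicate 2 with median scaling. Psmb9, which replaces Psmb6, read 416, 383 and 399 (8.49 ± 0.11), or 6.89, 7.06 and 7.70 times the median negative control. Psmb8, which replaces Psmb5, read 74.5, 63.3 and 66.2 (4.81 ± 0.13) and was detected on replicates 1 and 3, with p-values of 0.0351 and 0.0201, and not on replicate 2, with 0.0789.

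The constitutive counterparts were set beside them. Psmb7 was detected by all 3 of its probes (brightest 9.32 ± 0.029) and Psmb6 by its 1 probe (8.27 ± 0.048). Psmb5 was detected on replicates 2 and 3 and not on replicate 1 (4.78 ± 0.27), so the subunit position filled by Psmb5 or Psmb8 had no probe that passed on every array. Of 8 measured genes of proteasome activators and assembly, 7 were detected (87.5%). Psme1, a subunit of the interferon-inducible activator PA28, read 9.51 ± 0.071, while Psme2, the other subunit of that complex, was detected on no array (4.34 ± 0.050). Pomp, the chaperone of proteasome assembly, read 9.67 ± 0.081.

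Of 14 measured regulators of class I transcription, 10 were detected (71.4%). Irf1, an interferon-induced activator, read 10.36 ± 0.092 at the brightest of its 5 probes, of which 4 were detected. Nlrc5, the class I transactivator, read 5.86 ± 0.14, Irf2 9.79 ± 0.079, Irf9 7.38 ± 0.020 and Stat2 5.06 ± 0.14. Rela, a subunit of NF-kappaB, read 10.17 ± 0.043. Rfx5, which encodes a subunit of the RFX complex at class I and class II promoters, was detected on no array (4.36 ± 0.048). Its partner Rfxank was also detected on no array (4.61 ± 0.012), whereas its partner Rfxap was detected on all 3 (7.39 ± 0.041). Of 12 genes, namely interferons, their receptors, the receptors' kinases and the suppressor Socs1, 6 were detected (50%), against 40.9% of all genes. Ifng and Ifnb1, which encode interferon gamma and beta, were detected on no array (4.39 ± 0.081 and 4.36 ± 0.053). The Ifna1 probe passed on all 3 (5.27 ± 0.077). Ifngr2 read 7.97 ± 0.084, and Ifngr1, the other chain of the interferon gamma receptor, was detected on replicates 2 and 3 (4.89 ± 0.12).

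**Figure D2:**
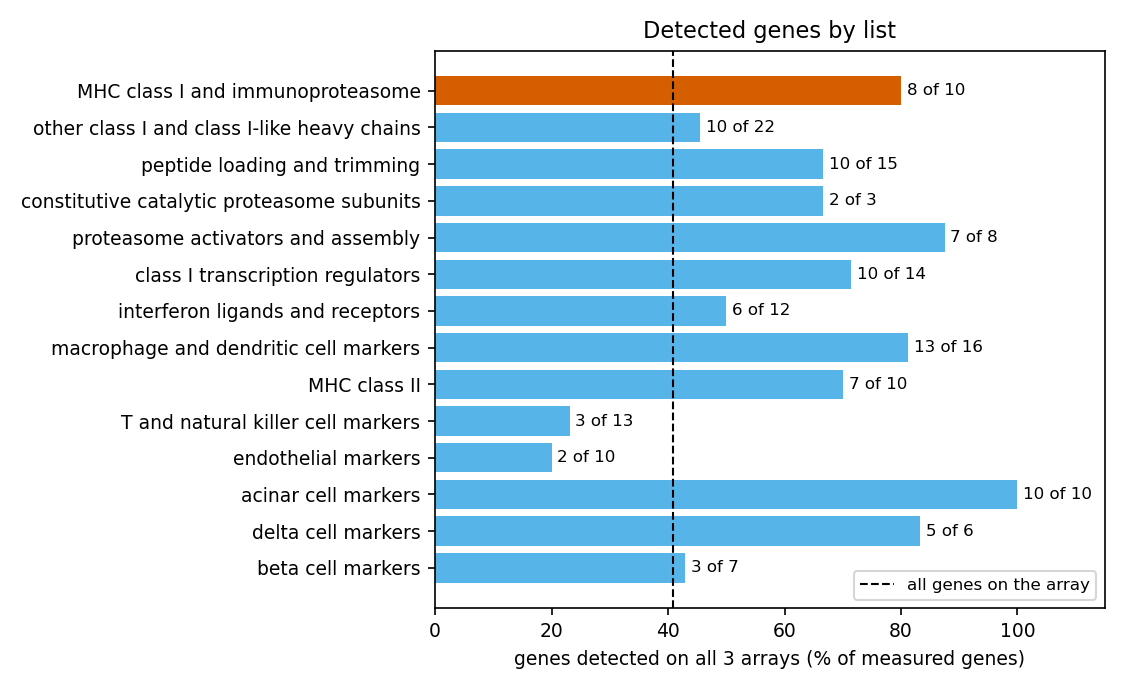
Share of the measured genes of each list that were detected on all 3 arrays (bars, in percent, with counts), and the share over all named genes (dashed line, 40.9%). The class I and immunoproteasome genes stand at 8 of 10, the other class I and class I-like heavy chains at 10 of 22 and the macrophage and dendritic cell markers at 13 of 16.

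Each array read the RNA of many sorted cells together, and nearly all nucleated cell types carry class I genes. The acinar markers were detected for 10 of 10 measured genes and the delta cell markers for 5 of 6, with Sst, the somatostatin gene, at 13.81 ± 0.046. Of the beta cell markers 3 of 7 were detected, with Ins2 at 11.38 ± 0.039, and Ins1 had no named probe. Of the macrophage and dendritic cell markers 13 of 16 were detected, among them Laptm5 (11.63 ± 0.036), Fcer1g (10.04 ± 0.035), C1qb (8.44 ± 0.018) and Adgre1, which encodes F4/80 (8.84 ± 0.19), while the general leukocyte marker Ptprc and the integrins Itgam and Itgax were detected on no array. The summed background-corrected signal of the macrophage and dendritic cell markers was 12990, 13390 and 13930 on replicates 1, 2 and 3. Of this sum, Lyz1, a lysozyme gene, gave 48.9% to 50.7% and Laptm5 22.9% to 23.8%. Lyz2, another lysozyme gene of the list, gave 7.17%, 7.781% and 10.07% on replicates 1, 2 and 3. Each of these 2 lysozyme genes had 3 probes, of which 1 was detected on all 3 arrays. Which cells the Lyz1 signal came from was not tested, so the sum may not measure macrophages and dendritic cells alone. Lyz1 is also counted among the 13 detected markers. Of the MHC class II genes, which professional antigen-presenting cells carry, 7 of 10 were detected, with summed signals of 7620, 7294 and 7810. T and natural killer cell markers were detected for 3 of 13 genes (23.1%, against 40.9% of all genes), namely Cd3e, Cd8b1 and Prf1. Cd8b1 and Prf1 each passed by 1 of 2 probes. Another 9 of these markers, among them Cd3d, Cd3g, Cd4 and Cd8a, were detected on no array. Whether the signals that passed came from T or natural killer cells was not tested. Endothelial markers were detected for 2 of 10 genes (Plvap and Esam). In such bulk RNA, more cells of a type and more transcript per cell cannot be told apart. The part that macrophages and dendritic cells had in the class I signals was not tested.

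Between the 3 arrays, none of the 11 detected class I and immunoproteasome probes passed the limma F test of each probe's variance, which set that variance against the trend of all 8486 detected probes (smallest adjusted p = 0.989, Benjamini-Hochberg over all 8486; 0 of 11 had an unadjusted p under 0.05, against 4.8% of all detected probes). None of these 8486 probes passed (0.0%), and when all 25697 probes were tested 22 passed, none of them among the 16 of the class I and immunoproteasome genes. The median SD of the 11 probes was 0.103, against 0.0872 over all detected probes, and their median range between arrays was 0.198 log2 units, against 0.166. The brighter H2-K1 probe ranged most, by 0.516 log2 units or 1.43-fold from replicate 2 to replicate 1, with an SD above that of 97.1% of detected probes (unadjusted p = 0.0628, adjusted p = 0.989, limma F test). H2-D1 ranged by 0.319 and the brighter H2-T23 probe by 0.28. With median scaling the brighter H2-T23 probe ranged most (0.43, against 0.41 for H2-K1), and with no background correction the H2-K1 range was 0.273. The test recovered few of the probes made more variable in simulated data, so a p above the threshold does not show that the arrays were equal.

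**Figure D3:**
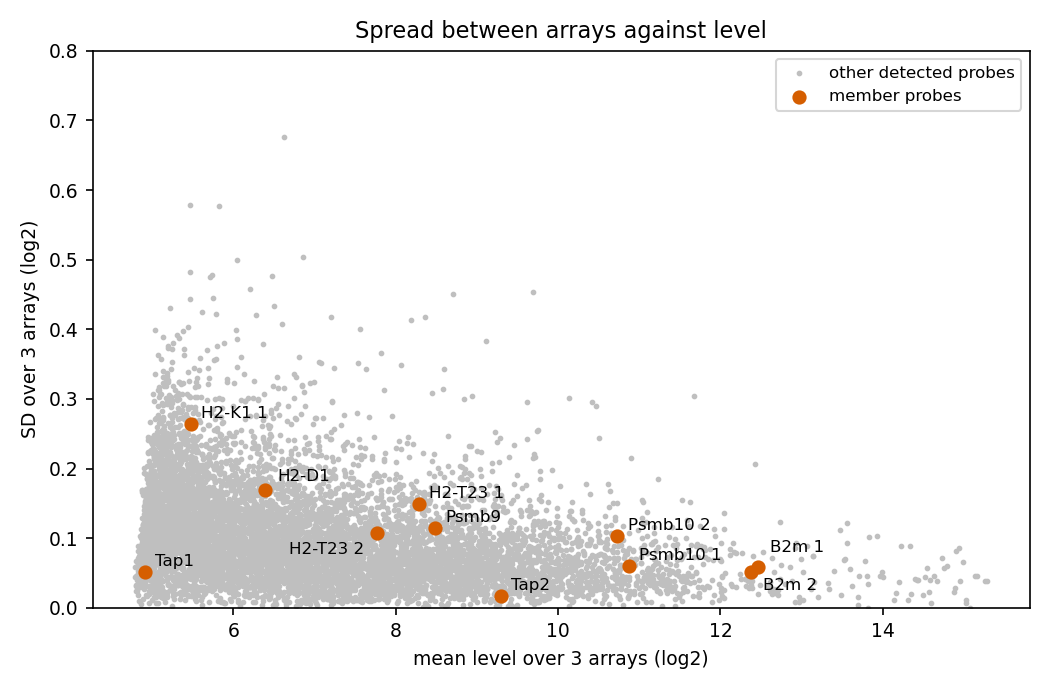
SD over the 3 arrays (vertical axis, log2) against the mean level (horizontal axis, log2) for the 8486 detected probes, with the 11 class I and immunoproteasome probes in colour. With quantile normalization, the H2-K1 probe at 5.48 has the largest SD of the 11 (0.26) and Tap2 at 9.30 the smallest (0.017).

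The 11 probes did not move as 1 block. Of these, 5 were highest on replicate 1, 3 on replicate 2 and 3 on replicate 3, while 37.4%, 32.8% and 29.8% of all detected probes were highest on the respective array. For 7 of the 11 the highest array was the same under the 4 scalings tried. For the other 4, the brightest probes of B2m and Psmb10 and the probes of Tap2 and Psmb9, it changed with median scaling, under which the median of all detected probes itself lay at -0.09, 0.027 and 0.06 on replicates 1, 2 and 3. The median deviation of the 8 detected genes from their 3-array means was 0.024, -0.012 and 0.009 on replicates 1, 2 and 3, a range of 0.036, against a range of 0.008 over all detected genes. With median scaling these ranges were 0.13 and 0.152. Beside them, the F4/80 gene Adgre1 was lowest on replicate 1 (8.62, 8.97 and 8.92). So were C1qa (7.022, 7.124 and 7.037) and C1qb (8.425, 8.462 and 8.446). Only C1qc (7.17, 6.96 and 6.79) and Mrc1 (5.62, 5.45 and 5.53) were highest there. These were 2 of the 13 detected macrophage and dendritic cell markers (15.4%), against 36.9% of all detected genes. With median scaling 1 marker was highest there (7.7%), against 10.7% of all detected genes. Of the 13 detected macrophage and dendritic cell markers, 8 were lowest on replicate 1 (61.5%), against 33.6% of all detected genes. With median scaling 9 were (69.2%), a share near the 70.3% of all detected genes. Of the 7 detected class II genes, 4 were highest on replicate 1, 2 on replicate 2 and 1, H2-Aa, on replicate 3. The shares over all detected genes were 36.9%, 33.3% and 29.7%. With median scaling 5 of the 7 were highest on replicate 3 (71.4%), against 53.6% of all detected genes. The part of these cells in the differences was not tested.

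**Figure D4:**
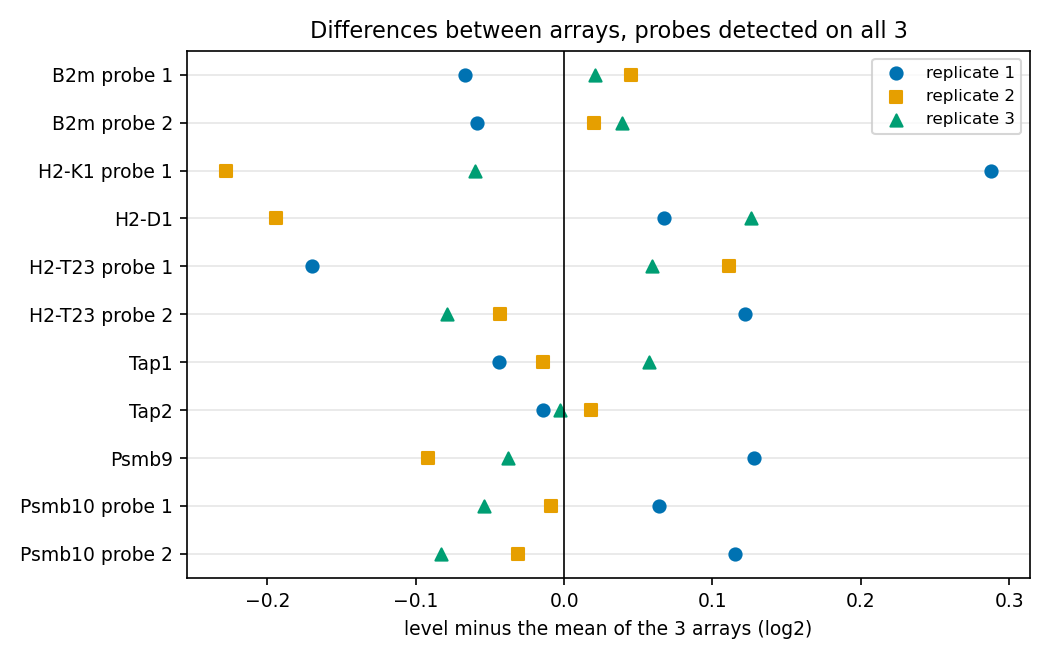
Level of each of the 11 detected probes on each array (points) minus its mean over the 3 arrays (horizontal axis, log2). With quantile normalization, the points of Tap2 lie closest together and those of the H2-K1 probe farthest apart, and the 2 probes of H2-T23 place replicate 1 on opposite sides of the mean.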

How the data were processed

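Total RNA of 3 sorted samples was biotin-labelled and hybridised to Illumina MouseRef-8 v2.0 expression beadchips, per the labels' protocols. The deposited table named non-normalized holds for each probe an average bead intensity together with its detection p-value, per the file headers. Its 3 intensity columns share a mean of 211.8, so the arrays had been scaled before deposit; their medians are 65.9, 59.5 and 57.2. The sources used here do not name the scanner software. The authors' processed intensities, deposited as a second table, rank the probes of each array as the first does and share 1 distribution; they served as an alternative, and the target of that normalization is unknown.

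Of 25697 probes, 23978 had 1 gene symbol in the platform annotation, 0 had several and 1719 had none here; all 16 probes of the 10 genes matched RefSeq through the Entrez identifier. Intensities were corrected by normexp, with negative controls inferred from the detection p-values and an offset of 16, quantile normalized and taken to log2 (neqc, limma 3.58.1, R 4.3.3). The arrays detected 9145, 9592 and 9713 probes (35.6%, 37.3% and 37.8%). The arrays' number limits the precision. The brightest probe stands for a gene, and all probes of the 10 genes are given. Probe variances between arrays were tested in limma against the intensity-dependent prior variance, adjusted over all detected probes. Data were also simulated from that fitted prior with normal noise, the model that the test itself assumes. The absence of false calls there therefore says little of these arrays. The procedure recovered 2 of 100 probes given 3 times the SD and 13 of 100 given 6 times the SD. Lists of other genes are described by counts alone. In those lists, all detected class I heavy chains and constitutive subunits are named and other genes are examples. The summed signal of a list adds 1 probe per gene on the linear scale, after the offset was subtracted. Promoter windows were aligned with Biopython 1.88. The genes and lists were chosen with earlier results of these data known. Csf1r, Cd68 and Mpeg1 among the macrophage markers and Nfkb1, H2-L and H2-T22 had no named probe. A further gene of the lists is not reported here.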

Additional observations from a re-analysis of the deposited data

How the results depend on the processing

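The count of 8 detected genes was 7 at a detection p under 0.01 and after adjusting the detection p-values within arrays, where Tap1 no longer passed. It was 9 when 2 of 3 arrays sufficed and without replicate 2, where Psmb8 passed, and 8 without replicate 1 or 3. The count of 11 probes ranged from 10 to 13 over the same settings. Over all genes the shares detected were 35.4%, 36.8%, 44.7%, 43.1%, 41.8% and 41.7% (p under 0.01, adjusted p, 2 of 3 arrays, and without replicates 1, 2 and 3). Counts of the other lists stayed within 1.5 times of those reported. The F test in limma called 0 of the 10 genes' probes under every alternative run, which says little of stability, since it recovered few changed probes in simulated data; the smallest unadjusted p was 0.00813, for B2m with the authors' processed values (adjusted p = 0.873), and over all probes 36 passed with median scaling and 22 when undetected probes were tested too. The range of the members' median deviations was 0.13 with median scaling, where that of all detected genes was 0.152, and 0.013 to 0.017 leaving out 1 replicate; fewer arrays are compared there, and the cause was not tested beyond that. Mean levels of all 16 probes stayed within 1 SD with median scaling. This setting shifts whole arrays around their common average, so it could hardly move a mean over the 3 arrays. It did change the ranges between arrays, from 0.112 to 0.264 for the brightest B2m probe and from 0.118 to 0.051 for the brighter Psmb10 probe. For 12 of 16 probes the mean level moved by more than 1 SD with no background correction (by up to 1.41) and with the authors' processed values (by up to 1.203). With no background correction the background stays in every level, so that setting is a change of scale. The third B2m probe, at 4.28, read 5.69 there and 5.48 with the authors' values. The brightest B2m probe, at 12.46, read 12.47 and 12.98, and the cause of the shifts with the authors' values was not tested. No paired analysis was possible because there is 1 group. Signals of Tap1, Tapbp, Psmb8 and H2-K1, close to the negative controls, limit what can be said of these genes.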
